A study of Mus musculus with 6 samples.

Results

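Chemokine receptors are the G protein-coupled receptors with which blood cells sense chemokines, and they decide where a cell stays and where it moves. In bone marrow, Cxcr4 holds progenitors and immature neutrophils in place through its ligand CXCL12, Cxcr2 draws mature neutrophils out to the blood, and Ccr2 does the same for inflammatory monocytes. The 8 genes described here (Ccr1, Ccr2, Ccr7, Ccr9, Cx3cr1, Cxcr2, Cxcr3 and Cxcr4) were taken by symbol from a table of 24062 gene symbols, as receptors of progenitors, monocytes, neutrophils and lymphoid cells. All 8 passed the filter on low counts, as did 15742 genes in all.

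The RNA came from bone marrow cells of C57BL/6 mice sorted for the stem cell factor receptor Kit; the series description adds that the cells were lineage-negative. The KO group was 3 mice with the Mx1-Cre transgene and floxed alleles of Ints11 (libraries KO_339, KO_340 and KO_345), and the WT group was 3 wild-type littermates (WT_341, WT_343 and WT_344), with 1 mouse per library. Cre under the Mx1 promoter is switched on by interferon, which was induced with poly(I:C), and it acts in any cell that responds to interferon. Sorting 4 days after poly(I:C) is stated for both genotypes. The labels used here state neither the ages of the mice nor whether the WT mice carried the transgene. Ints11 encodes the endonuclease of the Integrator complex, which cleaves nascent RNA.

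Libraries held 124074531 to 166860739 counts. Ints11, listed as Cpsf3l, had 64.3, 58.3 and 60.2 CPM in KO libraries, against 73.8, 92.3 and 78.9 CPM in WT libraries, a lower level in each KO library (CPM are counts per 1000000 of the TMM-scaled library total). Ints11 in KO was 0.75-fold of WT (adjusted p = 0.0174, edgeR's quasi-likelihood test). It did not pass 0.05 without KO_340 (0.0557) or without KO_345 (0.0541). Nor did it pass with a neutrophil (0.255) or a monocyte (0.0702) marker level as a covariate. Ints11 exons share 697 bases with the gene Pusl1 on the other strand, so this level checks the labels only in part. Kit was present in every library (220, 238 and 226 CPM in KO, 221, 199 and 214 CPM in WT). Genes of mature cells were also present, and the neutrophil gene S100a8 was at 3957 CPM or more in each library. WT_341 stood apart from the other WT libraries on the second principal component (-59.9, against 29.6 and 16.5). The summed level of 12 mature neutrophil markers was also higher in WT_341 (38996 CPM) than in WT_343 (12416 CPM) and WT_344 (22861 CPM), so results that it moves are also given without it. In RNA from a mixed population, fewer cells of a type and less RNA per cell cannot be told apart.

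The receptors lie on 4 chromosomes of GRCm38, the assembly that mm10 names. Ccr1 (chr9:123962124-123968692, reverse strand), Ccr2 (chr9:124101950-124113557, forward strand) and Ccr9 (chr9:123678439-123784330, forward strand) share a receptor cluster on chromosome 9, and Cx3cr1 (chr9:119901616-120069879, reverse strand) lies on the same chromosome. Cxcr2 (chr1:74153989-74161246, forward strand) and Cxcr4 (chr1:128588199-128592293, reverse strand) are on chromosome 1, Ccr7 (chr11:99144196-99155077, reverse strand) is on chromosome 11, and Cxcr3 (chrX:101731535-101734269, reverse strand) is on the X chromosome.

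RefSeq windows from 250 bases before to 50 bases after the gene start (GRCm38.p6) were found for 7 of the 8 genes, and 3 are printed: Ccr1 and Ccr2, cluster neighbours whose levels moved in opposite directions, and Cxcr4, the receptor with the highest level. The windows are placed by the RefSeq starts, and positions below count from these. The RefSeq start of Ccr2 (124102183) lies 233 bases inside the gene as GENCODE draws it, that of Cxcr4 lies 6 bases from the GENCODE start, and both starts of Ccr1 are the same. The windows run 5′ to 3′ on the gene's strand (Ccr1 at chr9:123968643-123968942, reverse; Ccr2 at chr9:124101933-124102232, forward; Cxcr4 at chr1:128592250-128592549, reverse). Capitals mark matches, on either strand, to 4 short motifs. GAGGAA is a core bound by factors of the ETS family such as PU.1. TTNNGNAA is bound by C/EBP factors of the myeloid lineage. AGATAA is bound by the GATA family of erythroid and progenitor cells. The last motif, TATAAA, is the TATA box of the basal promoter.
Ccr1: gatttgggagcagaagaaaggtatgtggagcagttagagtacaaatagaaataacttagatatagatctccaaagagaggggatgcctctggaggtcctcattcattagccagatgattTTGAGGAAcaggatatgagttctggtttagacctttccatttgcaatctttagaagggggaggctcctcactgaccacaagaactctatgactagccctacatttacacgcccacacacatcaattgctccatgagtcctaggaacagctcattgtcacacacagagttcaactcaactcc
Ccr2: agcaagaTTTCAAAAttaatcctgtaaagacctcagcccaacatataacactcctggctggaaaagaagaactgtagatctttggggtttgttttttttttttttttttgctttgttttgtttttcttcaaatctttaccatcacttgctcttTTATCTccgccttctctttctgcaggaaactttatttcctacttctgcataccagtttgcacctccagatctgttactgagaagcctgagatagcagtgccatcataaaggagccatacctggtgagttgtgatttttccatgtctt
Cxcr4: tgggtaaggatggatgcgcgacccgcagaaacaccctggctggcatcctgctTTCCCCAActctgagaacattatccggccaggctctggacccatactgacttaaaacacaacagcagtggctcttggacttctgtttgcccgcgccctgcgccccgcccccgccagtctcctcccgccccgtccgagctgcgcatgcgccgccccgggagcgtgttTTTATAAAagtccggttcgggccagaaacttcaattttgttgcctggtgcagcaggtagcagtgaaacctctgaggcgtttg

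In the Ccr1 window, GAGGAA began at position -129, inside a TTNNGNAA match that began at -131. The Ccr2 window held a TTNNGNAA match at -243 and an AGATAA match at -97, both on the opposite strand, and no GAGGAA; by the GENCODE start of Ccr2 the AGATAA match lies inside the gene. The Cxcr4 window held a TTNNGNAA match at -198 and overlapping TATAAA matches on both strands that began at -32 and -30. Of 32851 mouse windows of the same size, 28.3% held GAGGAA, 40.7% TTNNGNAA, 11.2% AGATAA and 13.6% TATAAA. The matches are given as a description of the sequence.

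Across the 8 receptors, 3 were called higher in KO libraries (Ccr1, Ccr9 and Cxcr4) and 1 was called lower (Ccr2), at an adjusted p below 0.05 by the quasi-likelihood test of edgeR, with p-values adjusted over all tested genes after Benjamini and Hochberg. Of all tested genes, 16.0% were called higher and 19.9% lower, the shares to set beside the counts of every gene list here. The median log2 change (KO over WT) was 0.62 over the 8 receptors and 0.01 over all tested genes. All 3 KO libraries lay above all 3 WT libraries for 3 receptors (Ccr1, Ccr7 and Ccr9), against 25.6% of all tested genes, and below them for 1 (Ccr2), against 28.4% of all tested genes. With 8 genes these shares are a description of the list. The count called higher was 0 without KO_339, WT_343 or WT_344 and 1 without KO_340 or KO_345, and the count called lower was 1 throughout.

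**Figure D1:**
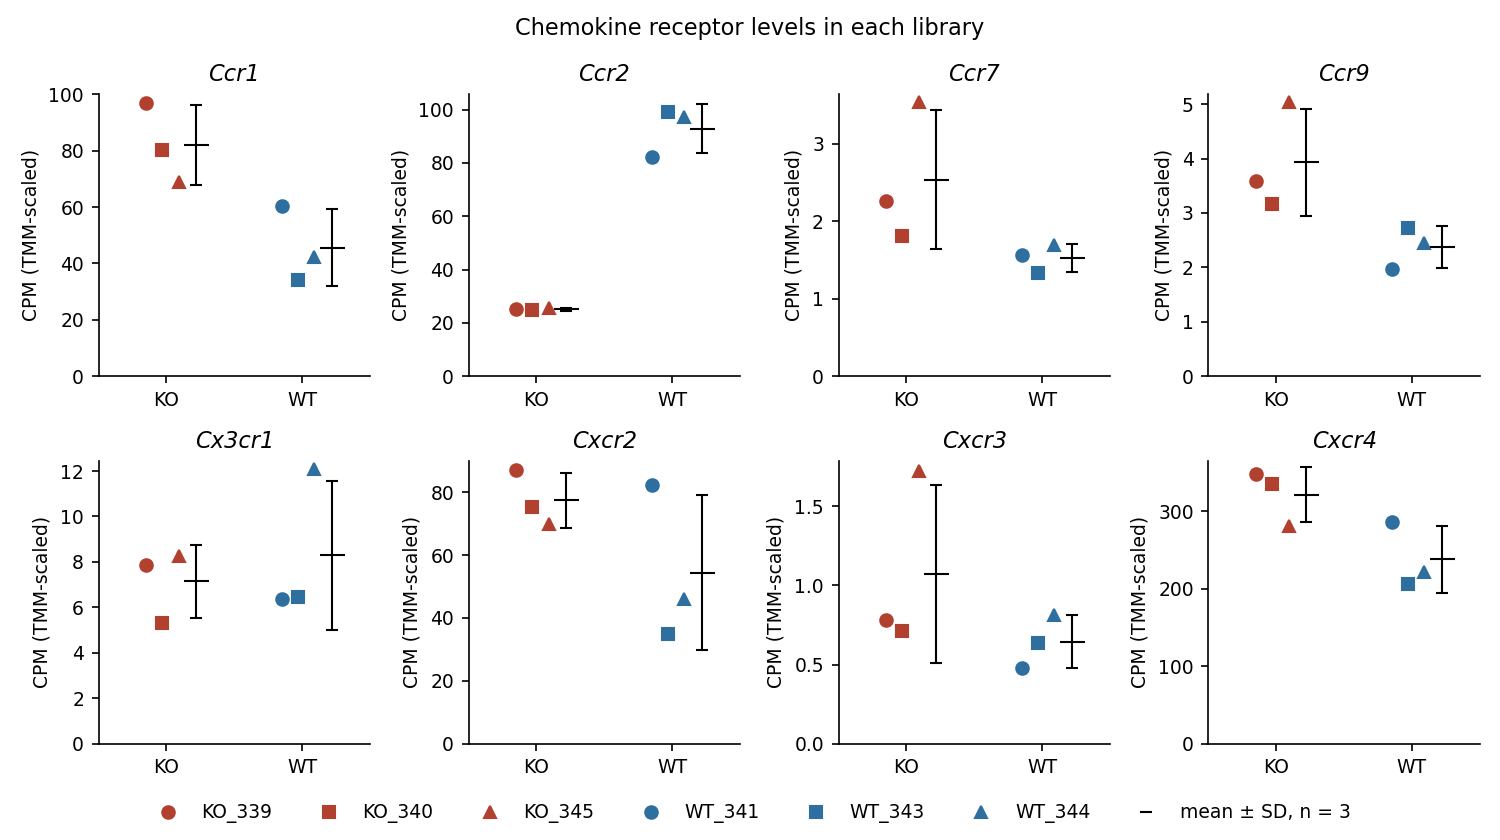
Level of each of the 8 receptors in TMM-scaled CPM (vertical axes, each starting at 0) in the 3 KO and the 3 WT libraries; points are single libraries, and the bar with whiskers is the mean ± SD. Ccr2 sits between 24.7 and 25.7 CPM in KO libraries and between 82.3 and 99.1 CPM in WT libraries, while for Cxcr2 the library WT_341 lies among the KO libraries.

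Ccr2, the receptor for CCL2 and CCL7 that inflammatory monocytes need to leave the marrow, showed the largest change of the 8. Its level was 25.1, 24.7 and 25.7 CPM in KO_339, KO_340 and KO_345, against 82.3, 99.1 and 97.4 CPM in WT_341, WT_343 and WT_344. The KO libraries were all but identical and lay far below every WT library. Ccr2 averaged 25.2 ± 0.538 CPM in KO and 92.9 ± 9.26 CPM in WT libraries (SD, n = 3 each), a log2 change of -1.88 ± 0.09 (SE, adjusted p = 0.000218 in edgeR's quasi-likelihood test), which makes WT 3.69-fold higher than KO. The call held under all 16 alternative settings, with log2 changes from -1.98 to -1.70 and an adjusted p of at most 0.00365.

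Genes known as monocyte markers did not all do the same. Of 12 listed, 5 fell and 2 rose, against 19.9% and 16.0% of all tested genes. The 5 were Ly6c2, a surface protein of inflammatory monocytes, Csf1r, the receptor for macrophage colony-stimulating factor, Irf8, a transcription factor of the monocyte and dendritic lineages, F13a1 and Ms4a6c. Irf8 had 37.3, 38.6 and 45.1 CPM in KO libraries, against 102, 77.9 and 118 CPM in WT libraries. Csf1r had 37.6, 27.8 and 46.6 CPM in KO libraries, against 52.7, 68.0 and 88.6 CPM in WT libraries. Both marker genes were lower in every KO library than in any WT library. The 2 that rose were Cd14 and the lysozyme gene Lyz2, which neutrophils express too. Through Lyz2, the summed level of the list was higher in KO libraries (4072 to 5375 CPM) than in WT libraries (2222 to 4060 CPM). The call of Lyz2 was lost without any KO library or WT_344 (adjusted p = 0.0740 to 0.125), and that of Ly6c2 was lost with upper-quartile factors (adjusted p = 0.0639). The calls of Ly6c2 and Csf1r were also lost without single libraries (adjusted p up to 0.0870 and 0.0825), while those of Irf8, F13a1 and Ms4a6c were kept without any 1 library. With the neutrophil level as a covariate, F13a1 (-1.34, adjusted p = 0.154), Csf1r (-0.68, 0.386) and Lyz2 (0.16, 0.428) did not pass in edgeR, while Irf8 and Ms4a6c did.

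Within a library, Ccr2 can be set against these markers with no scaling between libraries. There were 0.0292, 0.0313 and 0.0323 Ccr2 counts per Ly6c2 count in KO libraries, against 0.0599, 0.0896 and 0.0961 in WT libraries. Per Csf1r count the Ccr2 ratio was 0.668, 0.888 and 0.552 in KO libraries, against 1.56, 1.46 and 1.10 in WT libraries. Per Irf8 count it was 0.674, 0.639 and 0.570 in KO libraries, against 0.804, 1.27 and 0.824 in WT libraries. All 3 ratios were lower in every KO library than in any WT library, with KO over WT geometric means of 0.386, 0.507 and 0.663 (n = 3 each, exact two-sided permutation tests, p = 0.1 for each before adjustment, the smallest that 3 against 3 allows). With the mean level of the 12 monocyte markers as a covariate, the log2 change of Ccr2 was -1.80 (adjusted p = 0.00121, edgeR). That level overlapped between genotypes (mean log2 CPM 5.49, 5.15 and 5.75 in KO, 5.46, 5.81 and 6.03 in WT libraries). It averages markers that fell with markers that rose, so it need not follow the number of monocytes. By the 3 ratios, Ccr2 was lower in KO libraries also relative to Ly6c2, Csf1r and Irf8. No ratio was computed for F13a1 or Ms4a6c, which fell too, so this does not extend to monocyte markers in general. F13a1, a monocyte transglutaminase gene, came closest to Ccr2, with 46.3, 91.8 and 48.1 CPM in KO libraries, against 171, 226 and 220 CPM in WT libraries (log2 change -1.73 ± 0.27, SE, adjusted p = 0.00556, edgeR). This fall was near that of Ccr2 itself (log2 change -1.88).

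**Figure D2:**
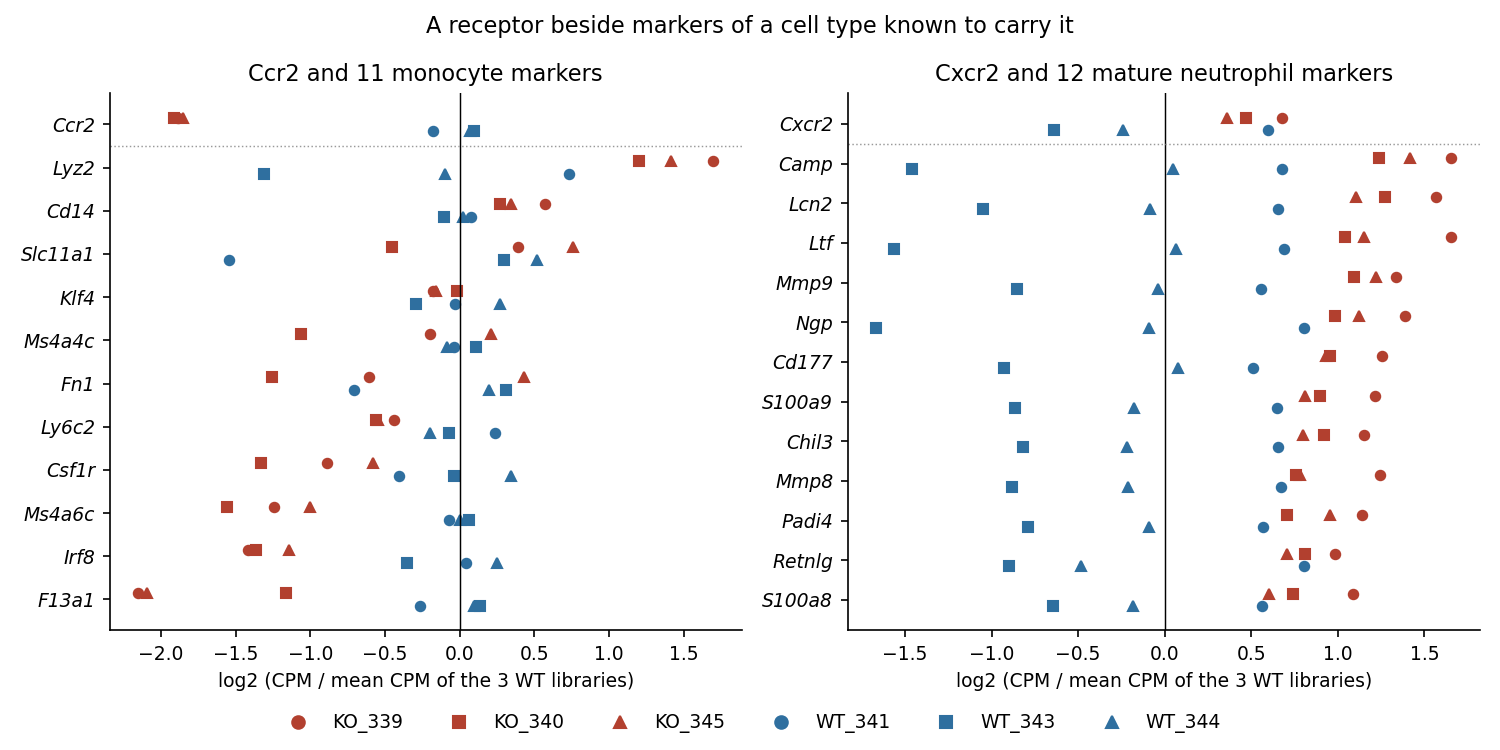
Level of Ccr2 with 11 of the 12 monocyte markers (left) and of Cxcr2 with 12 mature neutrophil markers (right) in single libraries, as log2 of CPM over the mean CPM of the WT libraries (horizontal axes); the vertical line at 0 is that mean. Among KO libraries, Ccr2 lies left of every marker drawn but F13a1, while Cxcr2 and the neutrophil markers are all high in WT_341 among the WT libraries.

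Ccr1 binds CCL3, CCL5 and the mouse chemokines CCL6 and CCL9, and is found on neutrophils, monocytes and myeloid progenitors. It had 97.1, 80.2 and 69.0 CPM in KO_339, KO_340 and KO_345, against 60.5, 34.0 and 42.4 CPM in WT_341, WT_343 and WT_344. Every KO library was above every WT library, with the gap narrowest between KO_345 and WT_341. Ccr1 rose 1.80-fold, with a log2 change of 0.85 ± 0.22 (SE, adjusted p = 0.0228, edgeR's quasi-likelihood test). The call was lost without KO_339 (log2 change 0.73, adjusted p = 0.0903), KO_340 (0.88, 0.0608), WT_343 (0.67, 0.0543) or WT_344 (0.79, 0.0762), and with the monocyte level as a covariate (0.66, 0.0711). Ccr1 counts per Ccr2 count were 3.86, 3.25 and 2.68 in KO libraries, against 0.735, 0.343 and 0.435 in WT libraries. So Ccr1 had more counts than Ccr2 in each KO library and fewer in each WT library (ratio of geometric means 6.74). Since Ccr1 was higher and Ccr2 lower in every KO library, this ratio had to separate the genotypes. It is a description and adds no test to the 2 calls.

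Cxcr2, the neutrophil receptor for CXCL1, CXCL2 and CXCL5, did not pass the test. It had 87.1, 75.4 and 69.7 CPM in KO_339, KO_340 and KO_345, against 82.2, 34.9 and 46.1 CPM in WT_341, WT_343 and WT_344. The groups overlapped through WT_341 alone. The log2 change was 0.51 ± 0.29 (SE, 95% confidence interval -0.16 to 1.18, adjusted p = 0.194, edgeR's quasi-likelihood test). Without WT_341 it was 0.92 and passed (adjusted p = 0.00267, edgeR). Without any other single library it did not pass (log2 change 0.27 to 0.60, adjusted p = 0.261 to 0.446, edgeR).

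Of 12 mature neutrophil markers measured beside it, 5 rose (Camp, Lcn2, Mmp9, Cd177 and Padi4) and 0 fell, against 16.0% and 19.9% of all tested genes. Of the 12, 11 lay higher in all KO than in all WT libraries, against 25.6% of all tested genes. The summed level of the list was 46837 to 61368 CPM in KO libraries and 12416 to 38996 CPM in WT libraries. S100a8 itself did not pass in edgeR (log2 change 0.83, adjusted p = 0.0671). It passed with DESeq2 (0.0106), with limma-voom (0.0492), with sex as a covariate (0.0468) and without WT_341 (log2 change 1.21, adjusted p = 0.00274). Without any other single library S100a8 did not pass (log2 change 0.58 to 0.94, adjusted p = 0.111 to 0.204, edgeR). Per 1000 summed counts of these markers, Cxcr2 had 1.42, 1.59 and 1.49 counts in KO libraries, against 2.11, 2.81 and 2.02 counts in WT libraries. Relative to neutrophil marker RNA, Cxcr2 was therefore lower in every KO library, and with the mean level of the markers as a covariate its log2 change was -0.31 (adjusted p = 0.190, edgeR). In the same fit Ccr1 (0.23, adjusted p = 0.347) and Cxcr4 (0.09, adjusted p = 0.704) no longer passed. The marker level was higher in every KO library than in any WT library (mean log2 CPM 10.6 to 10.9 in KO, 8.57 to 10.3 in WT), so this covariate and genotype cannot be told apart in full.

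Cxcr4, the CXCL12 receptor that keeps stem and progenitor cells in the marrow, had the highest level of the 8 receptors per length in every library. It had 348, 335 and 281 CPM in KO_339, KO_340 and KO_345, against 287, 206 and 221 CPM in WT_341, WT_343 and WT_344. The groups touched, with KO_345 just below WT_341. Cxcr4 rose 1.35-fold, with a log2 change of 0.43 ± 0.14 (SE, adjusted p = 0.0485, edgeR's quasi-likelihood test), close to the threshold. It did not pass with RLE size factors (adjusted p = 0.0513), with no filter on low counts (0.0694), with the monocyte level as a covariate (0.159), or without any 1 library other than WT_341 (0.0654 to 0.154). Without WT_341 the log2 change was 0.58 (adjusted p = 0.00351). Of 15 stem and progenitor markers, 8 rose (Cd34, Mecom, Hlf and Meis1 among them) and 5 fell (Mpo, Elane, Ctsg, Prtn3 and Cd48). Of all tested genes 16.0% rose and 19.9% fell. The part of these markers in the Cxcr4 level was not tested. The call of Cd34 (log2 change 0.38, adjusted p = 0.0345, edgeR) was lost without KO_339, KO_340, WT_343 or WT_344 (0.0580 to 0.0799). It was also lost with sex as a covariate (0.0573). The ligand gene of Cxcr4, Cxcl12, a product of stromal cells, had 31.2, 9.67 and 32.0 CPM in KO libraries, against 8.81, 14.4 and 11.5 CPM in WT libraries, and did not pass (adjusted p = 0.0843, edgeR).

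Cx3cr1 binds the membrane-bound chemokine CX3CL1 and marks patrolling monocytes, macrophages and their progenitors. It had 7.88, 5.30 and 8.26 CPM in KO_339, KO_340 and KO_345, against 6.36, 6.46 and 12.1 CPM in WT_341, WT_343 and WT_344. WT_344 was the highest library and the other 5 overlapped. The log2 change was -0.22 ± 0.29 (SE, 95% confidence interval -0.90 to 0.47, adjusted p = 0.583, edgeR's quasi-likelihood test), and its sign turned without WT_344 (0.15) and with the monocyte level as a covariate (0.20). Both monocyte receptors thus had negative estimates, but only that of Ccr2 passed, and the difference between them was not tested.

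Ccr9, the CCL25 receptor of lymphoid progenitors and gut-homing cells, was low. It had 3.59, 3.16 and 5.04 CPM in KO_339, KO_340 and KO_345, against 1.96, 2.72 and 2.45 CPM in WT_341, WT_343 and WT_344, with every KO library higher. Ccr9 rose 1.65-fold (log2 change 0.72 ± 0.23, SE, adjusted p = 0.0454, edgeR's quasi-likelihood test). The call was lost without any 1 library other than KO_340 (adjusted p = 0.0627 to 0.117) and with the neutrophil level as a covariate (0.0982). Its exons share 1932 bases with the unnamed gene AC165425.1 on the other strand, and no source used here states whether the counting kept strands apart.

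Ccr7 guides dendritic cells and T cells to lymph nodes along CCL19 and CCL21. It had 2.26, 1.81 and 3.54 CPM in KO libraries, against 1.56, 1.33 and 1.69 CPM in WT libraries. Every KO library was higher, yet the log2 change of 0.73 ± 0.28 did not pass (SE, 95% confidence interval 0.08 to 1.38, adjusted p = 0.0741, edgeR's quasi-likelihood test). It passed with DESeq2 (adjusted p = 0.0364) and with sex (0.0446) or the monocyte level (0.0427) as a covariate. By Xist and Y-linked counts the KO group held 2 males (KO_339 and KO_340) and 1 female, and the WT group 1 male (WT_341) and 2 females, so sex was unbalanced between genotypes.

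Cxcr3, the receptor of T and NK cells for the interferon-induced chemokines CXCL9, CXCL10 and CXCL11, had the fewest counts of the 8, between 59 and 230 per library. It had 0.781, 0.713 and 1.72 CPM in KO libraries, against 0.478, 0.639 and 0.812 CPM in WT libraries. KO_345 stood above all other libraries, and the rest overlapped. The log2 change was 0.73 ± 0.40 (SE, 95% confidence interval -0.21 to 1.68, adjusted p = 0.185, edgeR's quasi-likelihood test), and 0.25 without KO_345. This X-linked gene passed with sex as a covariate (0.96, adjusted p = 0.0294) and with the monocyte level as one (1.21, adjusted p = 0.0342).

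KO_345 had the highest level of Ccr7, Ccr9 and Cxcr3, and also of Ncr1 and Cd3e. The NK cell receptor gene Ncr1 had 3.84, 2.40 and 6.97 CPM in KO_339, KO_340 and KO_345, against 1.20, 2.02 and 1.36 CPM in WT libraries, and the T cell receptor complex gene Cd3e had 0.206, 0.228 and 0.592 CPM in KO libraries, against 0.146, 0.0506 and 0.227 CPM in WT libraries. Of 10 T cell markers 3 rose and 0 fell, with summed levels of 18.9 to 26.7 CPM in KO and 13.8 to 15.002 CPM in WT libraries. Of 10 NK cell markers 5 rose and 1, Nkg7, fell. Nkg7 made up most of the summed level of the NK list, which was 227 to 237 CPM in KO and 273 to 313 CPM in WT libraries. Of 10 tested dendritic cell markers 2 rose and 0 fell. Of all tested genes 16.0% rose and 19.9% fell, the shares to set beside each of these lists. Of 12 lymphoid progenitor and B cell markers 0 passed in edgeR, with summed levels of 126 to 150.2 CPM in KO and 36.5 to 205 CPM in WT libraries. KO_345 had the highest summed level of the T cell list (26.7 CPM), but not of the NK cell list or of the lymphoid progenitor and B cell list. The part of these cells in the levels of Ccr7, Ccr9 and Cxcr3 was not tested.

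Per kilobase of annotated exon, the mean level ran from Cxcr4 (178 CPM per kb in KO, 132 in WT) down to Ccr9 (0.383 in KO, 0.232 in WT). In KO libraries the order was Cxcr4, Ccr1, Cxcr2, Ccr2, Cx3cr1, Ccr7, Cxcr3 and Ccr9. The KO libraries overlapped between Ccr1 and Cxcr2 and between neighbours from Cx3cr1 downwards. In WT libraries Cxcr2 (17.8 CPM per kb), Ccr1 (16.1) and Ccr2 (13.7) overlapped in the same way. The lengths of Ccr2 and Ccr9 are stretched by long alternative exons. With the shortest principal transcript instead, a choice made after the data were seen, Ccr2 was next to Cxcr4 in the WT mean (41.0 CPM per kb). In WT_341, however, Cxcr2 was just above Ccr2 (14.4 against 14.1% of the length-scaled level of the 8 receptors). Ccr2 was below Cxcr2 and Ccr1 in KO libraries (11.1 CPM per kb), and Cxcr3 had the lowest level. Cxcr4 made up 73.2, 75.7 and 73.5% of the length-scaled level of the 8 receptors in KO libraries, against 71.5, 73.6 and 71.5% in WT libraries. The share of Ccr2 was 1.42, 1.49 and 1.80% in KO libraries, against 5.49, 9.48 and 8.42% in WT libraries. The share of Ccr1 was 13.1, 11.6 and 11.5% in KO libraries, against 9.63, 7.77 and 8.74% in WT libraries. With the shortest principal transcripts the share of Ccr2 was 3.93, 4.14 and 4.94% in KO libraries, against 14.1, 23.1 and 20.7% in WT libraries. That of Cxcr4 was then 68.2, 70.6 and 67.7% in KO libraries, against 61.7, 60.2 and 59.1% in WT libraries. By either length the Ccr2 share was lower in every KO library than in any WT library, while the Cxcr4 share was higher in every KO library only by the shorter length.

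The cluster on chromosome 9 was examined because the levels of Ccr1 and Ccr2 moved in opposite directions, after their values were seen. Of the genes reaching within 600 kb of Ccr2 on either side, 16 were tested, 8 of them chemokine receptors. Ccr9, Xcr1 and Ccr1 rose, Ccr2 and the outlying gene Limd1 fell, and the other 11 did not pass in edgeR. Thus 3 of 16 were called higher and 2 lower, against 16.0% and 19.9% of all tested genes. With 16 genes these counts are a description of the window. The start of Ccr1 lies 133 kb from that of Ccr2. Ccr3, the eotaxin receptor of eosinophils, lies between Ccr1 and Ccr2 and had 3.44, 2.39 and 5.78 CPM in KO libraries, against 1.77, 5.26 and 4.74 CPM in WT libraries (log2 change -0.02 ± 0.46, SE, adjusted p = 0.976, edgeR's quasi-likelihood test). The genotypes thus overlapped widely for this neighbour of Ccr2.

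**Figure D3:**
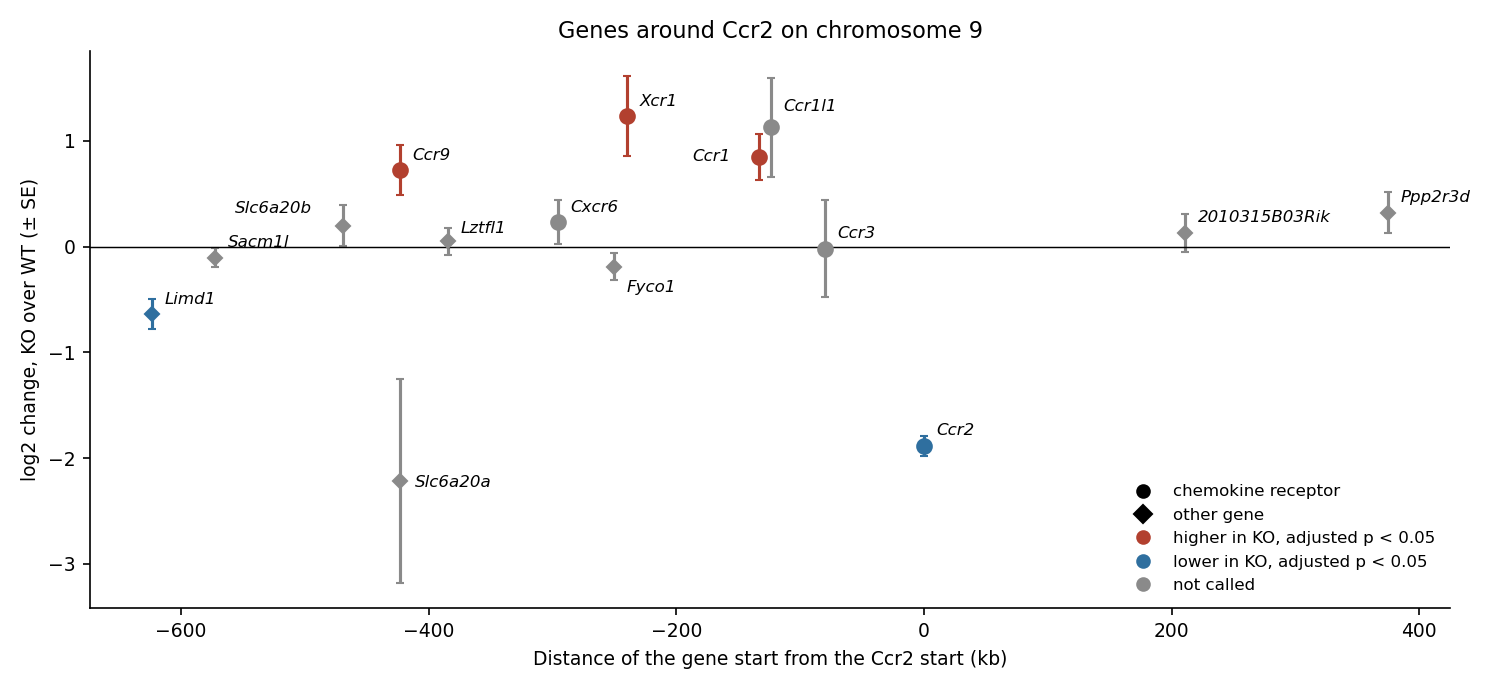
Log2 change (KO over WT, ± SE) of 15 of the 16 tested genes around Ccr2 on chromosome 9, by the distance of each gene's start from the Ccr2 start in kilobases; circles are chemokine receptors and diamonds other genes, in red where called higher, blue where called lower and grey where not called. Ccr2 stands at -1.88, with Ccr3 at -0.02 and Ccr1 at 0.85 on one side of it.

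Of the other chemokine receptors, 17 were listed and 15 tested. Among these 4 rose and 0 fell (16.0% and 19.9% of all tested genes), with a median log2 change of 0.98. The 4 were Ccrl2, Cxcr5, Ackr4 and Xcr1, and 2 passed without KO_339. Ccrl2, a receptor that holds the attractant chemerin without signalling, had 21.5, 21.1 and 22.9 CPM in KO libraries, against 11.8, 10.4 and 10.5 CPM in WT libraries (2.00-fold, adjusted p = 0.00197, edgeR's quasi-likelihood test). Cxcr5, the B cell receptor for CXCL13, had 3.01, 3.55 and 3.53 CPM in KO libraries, against 1.16, 0.588 and 0.702 CPM in WT libraries (4.13-fold, adjusted p = 0.00420, edgeR). Both calls held under all 16 alternatives. Ackr4, a scavenger of CCL19, CCL21 and CCL25, rose 1.73-fold and Xcr1, the XCL1 receptor of cross-presenting dendritic cells, rose 2.35-fold (adjusted p = 0.0298 and 0.0391, edgeR). The calls of Ackr4 and Xcr1 were each lost without any 1 library other than WT_341 (adjusted p up to 0.104 and 0.120). With the neutrophil level as a covariate their log2 changes were 0.31 (adjusted p = 0.462) for Ackr4 and 0.39 (0.516) for Xcr1, and neither passed with the monocyte level as one (0.0731 and 0.0743, edgeR).

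**Figure D4:**
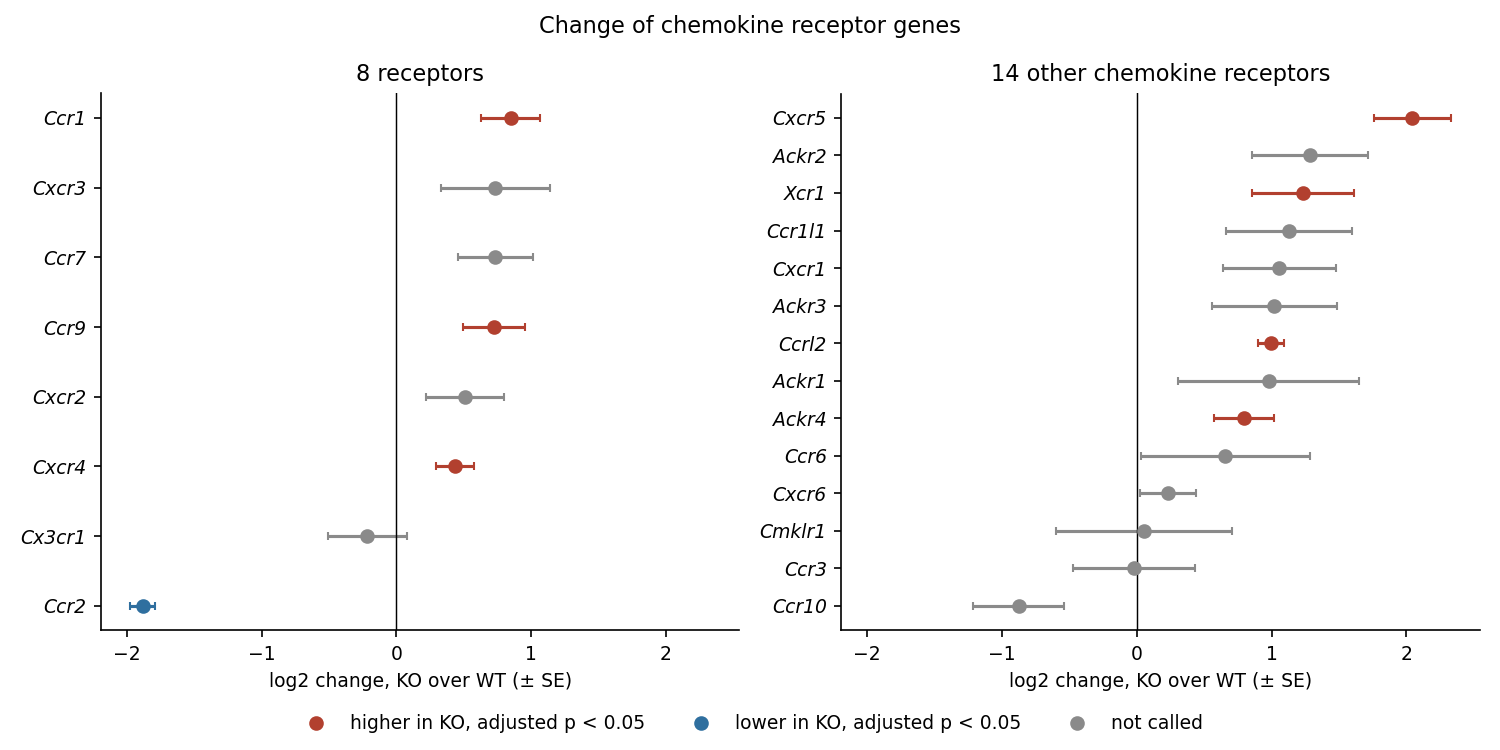
Log2 change (KO over WT, horizontal axes, ± SE) of the 8 receptors described here (left) and of 14 of the 15 other tested chemokine receptors (right), in red where called higher, blue where called lower and grey where not called. Ccr2 at -1.88 is the one receptor called lower, and Cxcr5 at 2.04 has the largest estimate.

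Of 24 chemokine genes whose products bind the 8 receptors, 21 were tested, 3 rose and 1 fell (16.0% and 19.9% of all tested genes), with a median log2 change of 0.35. Those that rose numbered 0 without KO_339, KO_345 or WT_344 and 7 without KO_340. Ccl9, a ligand of Ccr1, fell to 90.2, 63.3 and 67.0 CPM in KO libraries, against 114, 148 and 103 CPM in WT libraries (log2 change -0.73 ± 0.18, SE, adjusted p = 0.0197, edgeR's quasi-likelihood test). Ccl6, another ligand of Ccr1, rose 1.36-fold to 34.6 ± 3.78 CPM (adjusted p = 0.0380, edgeR), so 2 ligands of the same receptor were called in opposite directions. Cxcl3, a ligand of Cxcr2 (0.444 ± 0.177 CPM in KO and 0.124 ± 0.0628 CPM in WT libraries), and Cx3cl1, the ligand of Cx3cr1 (0.736 ± 0.333 CPM in KO and 0.191 ± 0.122 CPM in WT libraries), rose at very low levels (SD, n = 3 each). Each of these 4 calls was lost without at least 2 of the libraries KO_339, KO_340, KO_345, WT_343 and WT_344 (adjusted p up to 0.126), and with the neutrophil level as a covariate (0.0511 to 0.314).

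Downstream of the receptors, 24 genes of G protein signalling, receptor desensitization and cell movement were tested. Of these, 9 rose and 2 fell (16.0% and 19.9% of all tested genes), with a median log2 change of 0.19. Those that rose numbered 3 without KO_339 and 4 without KO_340 or KO_345. Grk5, a kinase that switches off active receptors, had 6.16, 6.29 and 7.26 CPM in KO libraries, against 3.57, 3.76 and 3.48 CPM in WT libraries (adjusted p = 0.00596, edgeR's quasi-likelihood test). Rgs1 and Rgs18, which speed the shut-off of G proteins, rose 1.84-fold and 1.61-fold (adjusted p = 0.00596 and 0.00700, edgeR). Nup85, a nuclear pore protein also known to bind CCR2 as FROUNT, fell to 93.7, 94.0 and 93.6 CPM in KO libraries, against 124, 157 and 137 CPM in WT libraries (adjusted p = 0.00626, edgeR). These 4 calls were kept without any 1 library; with the neutrophil level as a covariate Rgs18 (0.50, adjusted p = 0.109) and Nup85 (-0.32, adjusted p = 0.0520) no longer passed. Dock2, an activator of Rac in migrating leukocytes, was the other gene that fell.

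Among 13 receptors for other attractants, 5 rose and 1 fell (16.0% and 19.9% of all tested genes), with a median log2 change of 0.61. Those that rose numbered 1 to 3 without any 1 library other than WT_341, and 9 without WT_341. P2ry14, a receptor for UDP-glucose, had 27.0, 22.9 and 26.3 CPM in KO libraries, against 13.8, 11.6 and 12.2 CPM in WT libraries (adjusted p = 0.00269, edgeR's quasi-likelihood test). The sphingosine 1-phosphate receptors parted: S1pr1, which leads lymphocytes out of tissues, rose 2.04-fold (adjusted p = 0.0305), while S1pr2 fell to 17.1 ± 0.615 CPM in KO, against 26.4 ± 2.46 CPM in WT libraries (SD, n = 3 each, adjusted p = 0.00592, edgeR). Ptger4, a receptor for prostaglandin E2, rose 1.52-fold (adjusted p = 0.0222). The calls of S1pr1 and Ptger4 were lost without single libraries (adjusted p up to 0.101 and 0.0891). With the neutrophil level as a covariate, S1pr1 (0.61, adjusted p = 0.382), Ptger4 (0.19, 0.343) and S1pr2 (-0.44, 0.0691) did not pass in edgeR, and Ptger4 did not pass with the monocyte level either (0.0753).

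For 7 of the receptors (mean of at least 1 CPM), the genes of most like pattern were sought among 9825 tested genes with a mean of at least 5 CPM, by the root mean square difference of centred log2 CPM over the 6 libraries. For Ccr2 these were Prss57, a serine protease gene of neutrophil granules (0.16), Fut10 (0.19) and Bphl (0.19). Ccr1 was most like Plp2, Dhrs7 and Il15 (0.06 to 0.08), and Cxcr4 most like Erg, Alox5ap and Dnajb1 (0.04 to 0.05). The receptors differ in the size of their change, which enters the measure, so these differences are not compared between receptors. Cxcr2 was most like Ampd3, Osm and Tcp11l2 (0.07 to 0.09), Ccr7 most like Cd28, Nab2 and Slc15a3 (0.09 to 0.10), Ccr9 most like Pde5a, Fyn and Cd160 (0.10 to 0.11), and Cx3cr1 most like Plxnb2, Slc7a7 and Plekho1 (0.18 to 0.21). With 2 genotypes and 6 libraries, this measure of likeness takes in the change between genotypes as well as the differences between mice.

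**Figure D5:**
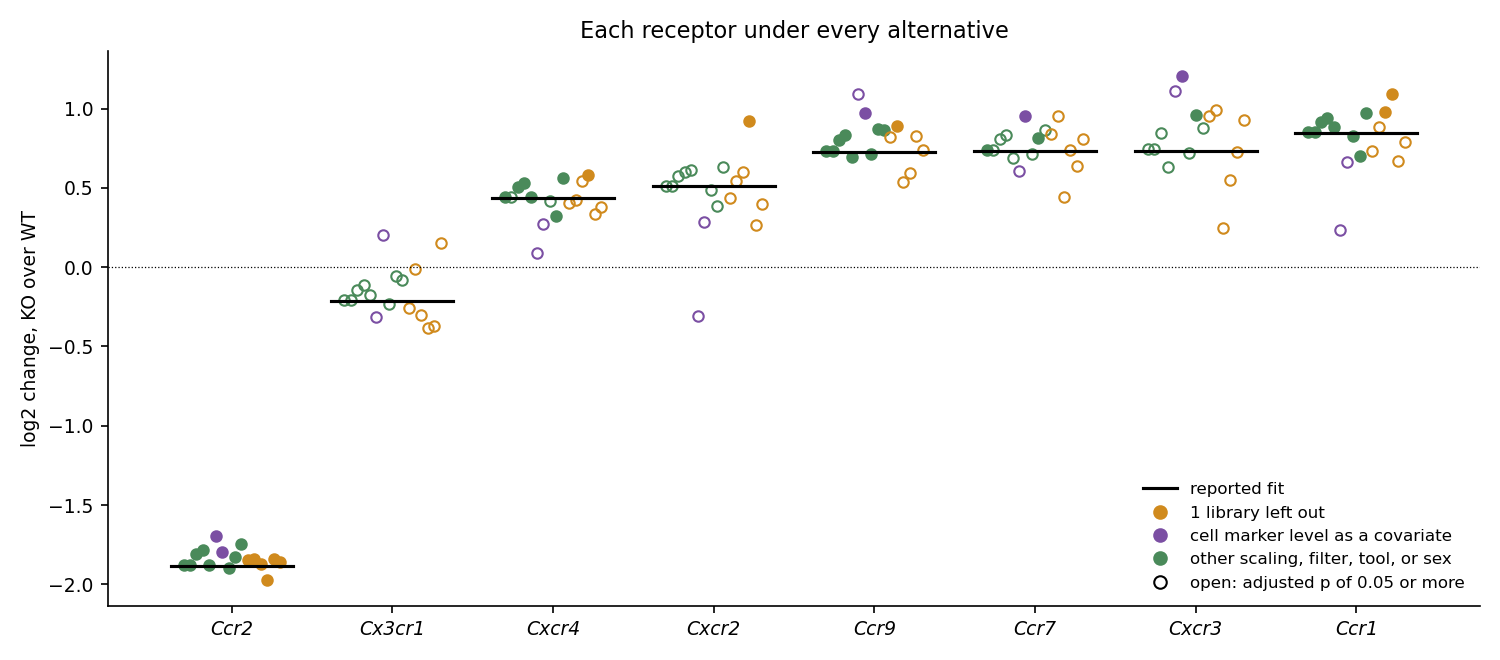
Log2 change (KO over WT, vertical axis) of each receptor in the reported fit (black line) and under up to 16 alternatives (points; orange where 1 library is left out, purple with a marker level as a covariate, green for other scaling, filters, tools or sex; open where the adjusted p is 0.05 or more). Ccr2 stays between -1.98 and -1.70 with every point filled, while the points of the other 7 receptors are open under some alternatives.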

How the data were processed

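Raw read counts per gene symbol were deposited by the authors, 1 column per library, without normalization. Per the labels' protocols, RNA of single mice was extracted with TRIzol, and libraries came from a stranded TruSeq mRNA kit, read in pairs with a length of 75 bp. The submitters' processing notes name FastQC, Trimmomatic, STAR, HTSeq and the build mm10; annotation release, strand setting and treatment of multiply mapped reads are stated in no source used here. Groups came from the sample titles.

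The 15742 genes that passed filterByExpr (minimum count 10, minimum total 15) were tested in edgeR 4.0.16 (R 4.3.3) with TMM factors, glmQLFit (robust) and glmQLFTest, and Benjamini-Hochberg adjustment with a threshold of 0.05. Each level is a TMM-scaled CPM. Confidence intervals use the t quantiles of the fit. Exon lengths and positions are from GENCODE M21 (GRCm38, 1-based) and promoter windows from RefSeq. The alternatives used limma 3.58.1 and DESeq2 1.42.0. Sex was called from Xist and Y-linked counts. Library pairs differed by a chi-square statistic of 58.7 or more per degree of freedom, so none was counted as 1 sample. The fit was tested on simulated counts.

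The receptors, the gene lists and the alternatives were chosen with earlier results of these data known. The named genes are the 8 receptors, up to 4 tested genes with the smallest adjusted p from each list of other receptors, ligands and signalling genes, fixed marker genes and the 3 genes of most like pattern; any other gene is named because of its values. The labels say nothing of shared batches, and p-values measure the spread between these mice. Some genes of the lists are counted there but not reported here.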

Additional observations from a re-analysis of the deposited data

How the results depend on the processing

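Over 127 refits of the 8 receptors, 97 kept direction and side of the threshold, 21 lost a call, 6 gained one and 3 turned sign without a call: Cx3cr1 with the monocyte level as a covariate (0.20) and without WT_344 (0.15; -0.39 to 0.15 with 1 library left out), and Cxcr2 with the neutrophil level as a covariate (-0.31). The count of receptors called lower was 1 throughout. The count called higher, 3, was 0 with the neutrophil covariate, 5 with sex as a covariate and 0 to 3 with 1 library left out. Over all genes the 5659 calls became 1084 with the neutrophil covariate, 3514 with the monocyte covariate and 2302 (without KO_339) to 7879 (without WT_341) with 1 library left out. The cause of these differences was not tested. The share of calls that were higher in KO was 44.5% under TMM (median log2 change of all genes 0.01), 64.2% under upper-quartile scaling (0.15) and 58.8% when only library totals were used (0.11). No receptor changed sign with these scalings. Cxcr3 had no value with the filter of at least 1 CPM in 3 libraries. No paired analysis was possible because the genotypes share no replicate numbers.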

Other observations

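C3ar1 and Cmklr1, receptors of mononuclear phagocytes, varied widely between mice of 1 genotype. C3ar1, the receptor for complement C3a, had 9.02, 1.66 and 13.4 CPM in KO_339, KO_340 and KO_345, against 0.730, 11.1 and 6.92 CPM in WT_341, WT_343 and WT_344. Cmklr1, the signalling receptor for chemerin, had 3.96, 1.75 and 6.39 CPM in KO libraries, against 1.01, 4.90 and 5.72 CPM in WT libraries. In both genes WT_341 was lowest and KO_340 next, and neither passed in edgeR (adjusted p = 0.785 for C3ar1 and 0.954 for Cmklr1). They were picked after their values were seen, and their pattern was not tested.

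Genes of eosinophils and basophils rose in 8 of 9 tested cases, against 16.0% of all tested genes. Their median log2 change was 1.24, with a summed level of 3521 to 4100 CPM in KO libraries, against 1396 to 1918 CPM in WT libraries. The eosinophil peroxidase gene Epx had 886, 737 and 974 CPM in KO libraries, against 318 to 355 CPM in WT libraries. Ccr3, the receptor that mature eosinophils carry, was not called (edgeR, adjusted p = 0.976).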
